A study of Homo sapiens with 3 samples.

Results

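Histone cluster genes are the members of the HIST1, HIST2, HIST3 and HIST4 gene clusters, and they were taken as every gene of the deposited tables whose symbol began with HIST1H, HIST2H, HIST3H or HIST4H. There were 31 such genes among the 16149 genes listed in at least 1 of 3 libraries. All 3 libraries came from untreated cultures of human hepatocellular carcinoma (HCC) cells in DMEM, with 1 library for each line. The parent is labelled as the line HCCLM3 with low metastasis ability, while the study's text calls its parental cells HCCLM3-R, a derivative with red fluorescent protein, and ranks them as highly metastatic. Subclone 1 is labelled as more metastatic and specific to lung, and subclone 2 as having a dual ability for lung and celiac lymph node. The study grew such clones from single cells of metastases in mice, so that each subclone stands for 1 clone. Which of its clones were sequenced is not given in the sources used here.

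Histones H2A, H2B, H3 and H4 build the core of the nucleosome, around which DNA is wound, and histone H1 binds the linker DNA beside it. The clustered genes serve DNA replication. Their mRNAs are made in S phase, carry no poly(A) tail and end in a conserved stem-loop, to which the stem-loop binding protein SLBP attaches for processing, translation and decay. Some of these genes also give longer, polyadenylated mRNAs. The TruSeq RNA kit used for the libraries collects RNA by its poly(A) tail, so polyadenylated histone mRNA should prevail in the levels given here. Carried-over mRNA of the stem-loop form could not be told apart from it in these data.

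The mRNA level is given as RPKM, which divides the reads by gene length and by library size. Groups of 3 values always follow the order parent, subclone 1, subclone 2. Whole reads could be read back from the RPKM, and the libraries held 4488825, 4609696 and 4725150 reads. Brackets hold exact 95% intervals on these reads, Poisson for a level and binomial (Clopper-Pearson) for a ratio or a share. They cover counting error only and compare libraries, since 1 library for each line leaves no test between lines. The epithelial keratins of liver cells, KRT8 and KRT18, were high throughout, at 1614 to 1742 RPKM and 953 to 1075 RPKM, while ALB (albumin) had 2.46, 49.5 and 68.8 RPKM. Of 12 liver markers 8 had a mean of at least 1 RPKM, of which 4 were higher than the parent by 2-fold or more in subclone 1 and 3 in subclone 2. The shares of all genes were 4.9% and 5.33%. TF was higher in subclone 1 only, with 5.71, 30.3 and 5.88 RPKM. The listed liver markers with a mean under 1 RPKM stayed at or under 0.726 RPKM in every library. Of 12 markers of other cell types 9 were listed, with summed levels of 9.43, 14.6 and 6.38 RPKM. Most of that sum came from PECAM1 of endothelium (3.33, 9.81 and 4.46 RPKM) and from COL3A1 of fibroblasts (4.42, 2.21 and 0.463 RPKM), while COL1A1, COL1A2, PTPRC, VWF and CDH5 stayed at or under 0.403 RPKM. CD3E, HBA1 and HBB were not listed. LYZ had 1.03, 1.00 and 1.40 RPKM, and CD14 had 0.134 RPKM, 1.04 RPKM and no listing. COL3A1 was lower in subclone 1 and lowest in subclone 2, while PECAM1 and CD14 were highest in subclone 1 and LYZ in subclone 2. The part of these markers in the histone levels was not tested.

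The RefSeq gene table of GRCh38.p14 holds 90 histone cluster genes, 71 of them protein coding. In these libraries 30 of the 71 were listed, together with 1 pseudogene. Of the 31, 26 belong to HIST1 on chromosome 6 and 5 to HIST2 on chromosome 1, and HIST3 and HIST4 had no listed gene. By family, 12 were H2B genes, 7 H2A, 5 H3, 4 H4 and 3 H1. The mean over the 3 libraries reached 1 RPKM for 13 members, against 11370 of all 16149 genes. HIST1H2AM lay just inside this limit with a mean of 1.06 RPKM and HIST1H2AE just outside with 0.912 RPKM. The other 18 members had at most 7 reads each over all libraries.

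The stem-loop is shown because it separates the replication-type end of these mRNAs from the polyadenylated one. A run of 16 bases, a stem closing on a loop of 4 bases, was searched after the coding sequence in the GENCODE transcripts of GRCh38. It was found in 15 of the 31 members. The annotated transcripts of 12 members ended within 3 bases of the coding sequence, so that the search had nothing to read in them. The 5 different sequences follow, each under 1 member that carries it, with the loop in capitals.
HIST2H2BE: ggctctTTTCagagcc
HIST1H2BD: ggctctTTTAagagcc
HIST1H4H: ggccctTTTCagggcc
HIST2H2BC: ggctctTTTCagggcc
HIST1H3E: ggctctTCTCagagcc
The form of HIST2H2BE was shared by 9 members and that of HIST1H2BD by 3, and the others occurred in 1 member each. In 10 members an annotated transcript ran more than 200 bases past the stem-loop, as in HIST2H2BE, whose transcript goes on for 1729 bases. HIST1H2BD has a transcript of 2 exons that lacks the stem-loop and carries 387 bases after its coding sequence.

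The gene lengths that turned the RPKM into whole reads are the smallest that do so, and a multiple of each would fit as well. They did not all follow these annotated ends. HIST1H2BK had a length of 863 bases, although its GENCODE transcript has 381. HIST1H2AC had 546, but as a multiple would also fit, this cannot be set against its annotated transcript of 1668 bases. For HIST1H2BK, HIST1H2BD, HIST2H2BE and HIST2H2BF this length was more than 200 bases above the coding length, by 485, 451, 1845 and 235 bases. These 4 genes held 68.1% (64.0–72.0), 62.0% (56.9–67.0) and 54.3% (47.3–61.2) of the members' reads. The share was lowest in subclone 2, and its interval lay below that of the parent. HIST1H2BK gave most of these reads, with 265, 134 and 68 of 373, 232 and 113. The share of HIST1H2BD alone went the other way, with 6.75%, 13.6% and 17.3% of the members' reads, so the share does not describe the 4 genes alike. Its own reads were 37, 51 and 36, of 548, 374 and 208 reads of all members.

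HIST1H2BK (Entrez 85236), which encodes a histone H2B, was the most abundant member. GENCODE places its single exon at chr6:27146418-27146798, minus strand. It had 265, 134 and 68 reads, which is 68.4 RPKM (60.4–77.2), 33.7 RPKM (28.2–39.9) and 16.7 RPKM (12.9–21.1). The intervals were separate, with the parent highest and subclone 2 lowest. Against the parent the level was lower by 2.03-fold (1.64–2.52) in subclone 1 and by 4.10-fold (3.13–5.44) in subclone 2. From subclone 1 to subclone 2 it was lower by 2.02-fold (1.498–2.75). Of the windows of 50 bases in its coding sequence 73.9% also occur in transcripts of other genes, so that copies may share its reads, and how such reads were counted is not given in the sources used here.

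HIST2H2BE (Entrez 8349) is the H2B gene of the chromosome 1 cluster with the long transcript named above, at chr1:149884459-149886652, minus strand. It had 69, 45 and 8 reads, which is 6.91 RPKM (5.38–8.75), 4.39 RPKM (3.20–5.88) and 0.762 RPKM (0.329–1.501). Subclone 2 stood apart from both other libraries. Its level was lower by 9.08-fold (4.36–21.9) against the parent and by 5.77-fold (2.69–14.2) against subclone 1. The step from the parent to subclone 1 was smaller, at 1.57-fold lower (1.07–2.35). Other genes share 52.9% of its coding windows.

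HIST1H2BD (Entrez 3017), an H2B gene at chr6:26158146-26171349, plus strand, had another order. Its 37, 51 and 36 reads gave 9.94 RPKM (7.0–13.7), 13.3 RPKM (9.94–17.5) and 9.19 RPKM (6.44–12.7). All 3 intervals overlapped. Relative to the parent it stood at 1.34 (0.862–2.11) in subclone 1 and at 0.924 (0.568–1.504) in subclone 2, with intervals that hold 1.

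The other H2B genes had few reads. HIST2H2BC, annotated as a transcribed pseudogene, had 17 reads in every library, or 6.51, 6.34 and 6.18 RPKM. HIST1H2BC had 5, 4 and 3 reads (2.54, 1.98 and 1.45 RPKM), and HIST1H2BG had 3, 5 and 3 reads (1.502, 2.44 and 1.43 RPKM). HIST1H2BJ had 5, 3 and 1 reads (2.32, 1.35 and 0.440 RPKM). The intervals of all ratios of these 4 genes hold 1. Summed over the 12 H2B genes there were 404, 262 and 140 reads. Without HIST1H2BK the family stood at 0.897 (0.6997–1.15) of the parent for subclone 1 and 0.492 (0.365–0.659) for subclone 2. HIST2H2BE carried most of the latter, and the other 10 H2B genes had 70, 83 and 64 reads, with ratios to the parent of 1.15 (0.830–1.61) and 0.869 (0.609–1.24).

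**Figure D1:**
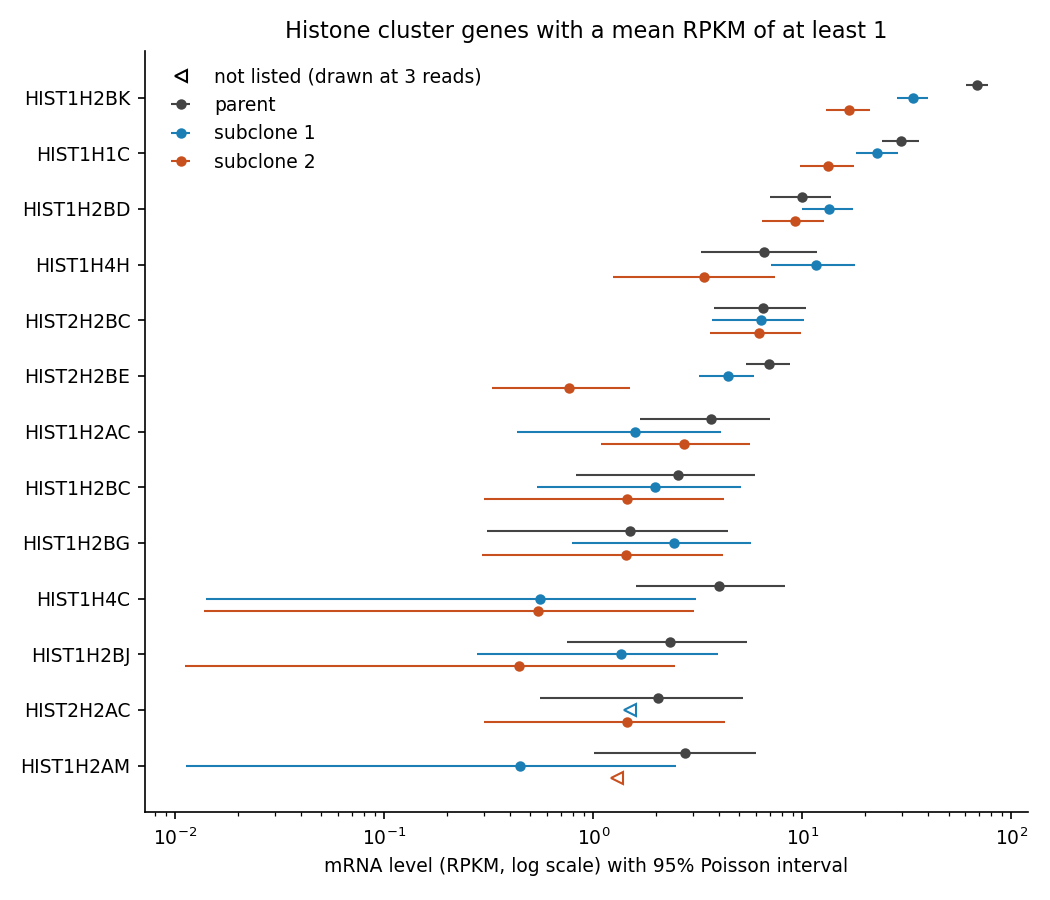
mRNA levels in RPKM (log axis) of the 13 histone cluster genes with a mean of at least 1 RPKM in the parent, subclone 1 and subclone 2, 1 library each, with 95% Poisson intervals as bars and open triangles at 3 reads for genes not listed. HIST1H2BK steps down from 68.4 to 33.7 and 16.7 RPKM and HIST2H2BE lies apart in subclone 2 at 0.762 RPKM, while the bars of HIST1H2BD and of most genes further down overlap.

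The promoters of HIST1H2BK, HIST2H2BE and HIST1H2BD are shown because these were the H2B genes with the most reads. They are the 250 bases before the RefSeq gene start in GRCh38.p14, written 5′ to 3′ along the gene. Capitals mark matches on either strand to the CCAAT box (CCAAT), to the TATA box (TATAAA) and to the octamer motif (ATTTGCAT), none of which holds another. HIST1H2BK lies at chr6:27146859-27147108 on the minus strand, HIST2H2BE at chr1:149886683-149886932 on the minus strand and HIST1H2BD at chr6:26157871-26158120 on the plus strand.
HIST1H2BK: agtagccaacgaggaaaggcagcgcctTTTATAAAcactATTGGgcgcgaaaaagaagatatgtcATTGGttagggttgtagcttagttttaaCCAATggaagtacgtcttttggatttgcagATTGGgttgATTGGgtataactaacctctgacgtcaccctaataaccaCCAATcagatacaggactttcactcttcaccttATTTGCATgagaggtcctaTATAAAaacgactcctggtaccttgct
HIST2H2BE: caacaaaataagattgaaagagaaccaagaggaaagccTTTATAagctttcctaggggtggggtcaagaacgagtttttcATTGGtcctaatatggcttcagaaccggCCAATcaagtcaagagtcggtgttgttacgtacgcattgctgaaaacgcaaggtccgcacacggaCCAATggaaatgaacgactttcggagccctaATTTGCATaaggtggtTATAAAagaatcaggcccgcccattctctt
HIST1H2BD: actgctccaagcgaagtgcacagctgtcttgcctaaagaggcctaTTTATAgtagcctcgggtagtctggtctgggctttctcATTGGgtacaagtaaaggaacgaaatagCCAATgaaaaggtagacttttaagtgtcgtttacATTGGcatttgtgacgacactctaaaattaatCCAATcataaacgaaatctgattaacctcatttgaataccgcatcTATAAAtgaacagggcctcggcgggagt
The octamer motif, known from H2B promoters and bound by POU2F1 (OCT1), begins 46 bases before the start in both HIST1H2BK and HIST2H2BE. These letters are not in the window of HIST1H2BD. Of the 27 members found in the promoter table, 14 held the octamer motif, against 1.63% of 35116 promoters, and these were 8 of 11 H2B genes, 5 of 7 H2A genes and 1 of 4 H3 genes. The CCAAT box was found in 25 of the 27, against 32.0% of promoters, and the TATA box in 19, against 10.7%. Windows of neighbouring genes that face each other overlap, so that members share some of these matches. Whether the motif goes with the level in subclone 2 was not tested. HIST1H2AM, with 6 reads in the parent and 0 in subclone 2, also has a match. The window of HIST1H1C, described next and lower in subclone 2, has no match. HIST1H2BD and HIST1H4H have none, and their ratios of subclone 2 to the parent have intervals that hold 1. HIST1H2AC, HIST1H2BC, HIST1H2BG, HIST1H2BJ and HIST2H2AC have a match, and their intervals also hold 1. With 3 to 9 reads each in the parent, these genes allow no statement of direction.

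HIST1H1C (Entrez 3006) encodes the linker histone H1.2 in 1 exon at chr6:26055787-26056428, minus strand. It had 97, 77 and 46 reads, which is 29.5 RPKM (23.9–36.0), 22.8 RPKM (18.0–28.5) and 13.3 RPKM (9.74–17.7). Subclone 2 was lowest, with an interval below both others, while those of the parent and subclone 1 overlapped. Its level was lower by 2.22-fold (1.55–3.23) against the parent and by 1.72-fold (1.18–2.53) against subclone 1. The ratio of subclone 1 to the parent, 0.773 (0.566–1.053), has an interval that holds 1. No window of its coding sequence occurs in transcripts of another gene. The other H1 genes had 2 reads and 1 read over all libraries.

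HIST1H4H (Entrez 8365), a gene for histone H4, lies at chr6:26277609-26285638, minus strand. It had 11, 20 and 6 reads, which is 6.55 RPKM (3.27–11.7), 11.6 RPKM (7.09–17.9) and 3.40 RPKM (1.25–7.39). Subclone 1 was highest, and from subclone 1 to subclone 2 the level was lower by 3.42-fold (1.32–10.4). The ratios to the parent were 1.77 (0.809–4.09) and 0.518 (0.157–1.53), with intervals that hold 1. HIST1H4C, also a gene for H4, had 7, 1 and 1 reads (4.0, 0.556 and 0.543 RPKM). Its ratios to the parent were 0.139 (0.00309–1.08) and 0.136 (0.00301–1.06), too wide for a statement of size.

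H2A genes were scarce throughout. HIST1H2AC had 9, 4 and 7 reads (3.67, 1.59 and 2.71 RPKM), with ratio intervals that all hold 1. HIST2H2AC had 4, 0 and 3 reads (2.04 RPKM, not listed and 1.45 RPKM). Against the 3 reads that a count of 0 allows it was at least 1.37-fold lower in subclone 1 than the parent's value, although the interval of that ratio reaches 1.48. HIST1H2AM had 6, 1 and 0 reads (2.74 RPKM, 0.445 RPKM and not listed), and by the same floor it was at least 2.11-fold lower in subclone 2 than the parent's value, with a ratio interval that reaches up to 0.807. Other genes share 87.1% of its coding windows. The 7 H2A genes together had 24, 10 and 11 reads, and their ratios to the parent were 0.406 (0.173–0.880) and 0.435 (0.193–0.923).

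The H3 genes gave 2, 2 and 3 reads, which allows no comparison. The highest of them, HIST1H3B, had 2 reads in subclone 1 (0.919 RPKM) and was not listed elsewhere.

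Many H2A and H2B genes are transcribed head to head from 1 shared region. In RefSeq the starts of HIST2H2BE and HIST2H2AC are 236 bases apart, and 69, 45 and 8 reads of the former stood beside 4, 0 and 3 reads of the latter. HIST1H2BC and HIST1H2AC start 246 bases apart, with 5, 4 and 3 reads beside 9, 4 and 7. HIST1H2BG and HIST1H2AE start 233 bases apart, with 3, 5 and 3 reads beside 5, 1 and 1. The partner of the H2B gene had at most 9 reads in any library of these pairs, so that a shared direction could not be read at this depth.

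Summed over all 31 members there were 548, 374 and 208 reads. In bulk cultures fewer cells with an mRNA and less mRNA per cell cannot be told apart. Scaled to library size, the sum in subclone 1 was 0.665 (0.581–0.759) of the parent and in subclone 2 it was 0.361 (0.306–0.424), or 2.77-fold lower. Subclone 2 had 0.543 (0.456–0.645) of the sum of subclone 1. HIST1H2BK alone held 48.4% (44.1–52.6), 35.8% (30.96–40.9) and 32.7% (26.4–39.5) of the members' reads. Without it the ratios to the parent were 0.826 (0.692–0.984) and 0.470 (0.381–0.577). With HIST1H1C and HIST2H2BE also left out they were 0.982 (0.754–1.28) and 0.698 (0.522–0.930). These last values are sums over 28 genes that do not move alike. HIST1H2BD, HIST2H2BC and HIST1H2BG had nearly the same reads in the parent and subclone 2. The 22 members with under 10 reads each over all libraries had 35, 17 and 14 reads. Their ratios to the parent were 0.473 (0.248–0.867) and 0.380 (0.189–0.724). Of these 22, the 18 with a mean under 1 RPKM had 13, 12 and 9 reads. The ratios of these 18 to the parent, 0.899 (0.375–2.14) and 0.658 (0.248–1.66), have intervals that hold 1. The rest of the 22 are HIST1H4C, HIST1H2BJ, HIST2H2AC and HIST1H2AM, whose means reached 1 RPKM only with the parent's value.

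**Figure D2:**
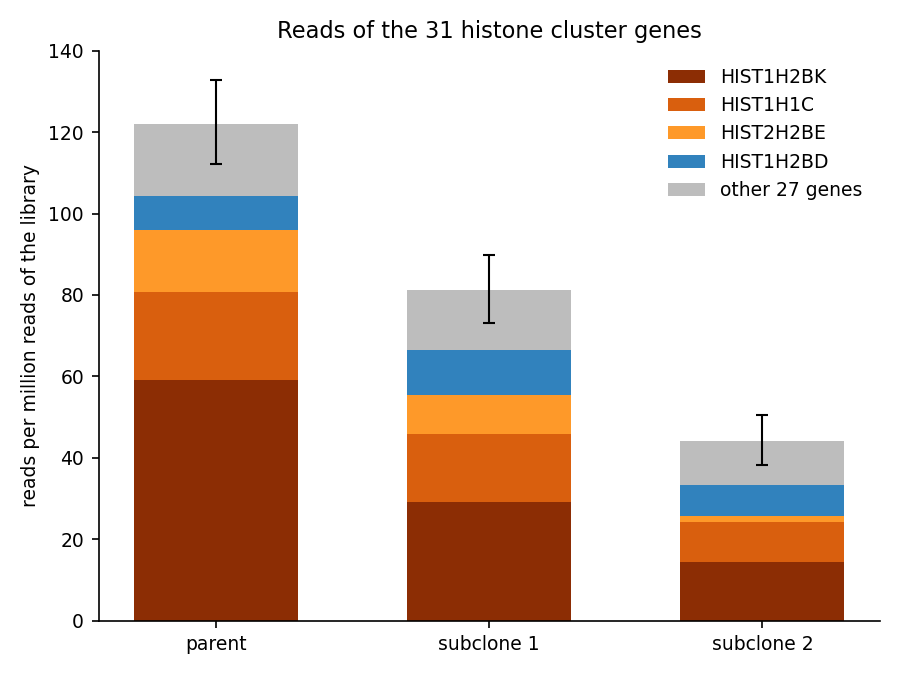
Reads of the 31 histone cluster genes, scaled to library size and stacked by gene, in the parent, subclone 1 and subclone 2; error bars are 95% Poisson intervals of the sum. The sum steps down over the 3 libraries from 548 to 374 and 208 reads, and HIST1H2BK is the largest piece in each bar, while the piece of HIST1H2BD (37, 51 and 36 reads) differs little between bars.

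Ratios were also counted over all genes, as log2 of (RPKM + 0.1) in 1 library over another, for genes with a mean of at least 1 RPKM. For subclone 1 over the parent, 5 of 13 members were lower by 2-fold or more, against 1.82% of all 11370 genes, and 0 were higher, against 4.90%. For subclone 2 over the parent, 6 of 13 were lower, against 2.16%, and 0 higher, against 5.33%. For subclone 2 over subclone 1, 5 of 13 were lower, against 1.39%, and 1 was higher, against 1.42%. Many of these rest on few reads, and the counts shrank once the counting interval also had to leave out 1. Then 1 member was lower for subclone 1 over the parent (HIST1H2BK, against 1.51% of 11285 genes) and 0 were higher (against 4.19%). For subclone 2 over the parent 4 were lower (HIST1H2BK, HIST1H1C, HIST2H2BE and HIST1H2AM, against 1.78%) and 0 higher (against 4.83%). For subclone 2 over subclone 1 3 were lower (HIST1H2BK, HIST2H2BE and HIST1H4H, against 1.05%) and 0 higher (against 1.05%). HIST1H2AM, HIST1H4C, HIST1H2BJ and HIST2H2AC reached a mean of 1 RPKM only through the parent, and had to come out lower in at least 1 subclone. The looser lower calls against the parent hold HIST1H2AM, HIST1H4C and HIST2H2AC for subclone 1. For subclone 2 they hold HIST1H2AM, HIST1H4C and HIST1H2BJ. HIST1H2AM is also among the calls with an interval that leaves out 1. These calls against the parent were set by the limit and carry no weight beside the shares of all genes. Both comparisons with the parent also share its library.

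The median log2 ratio of the 13 members was -0.64 for subclone 1 over the parent, beside 0.0043 for all genes, and -0.45 with the unlisted gene at its bound. This value hung on the limit for low RPKM, since it was -0.034 over all 31 members and -0.038 over the 5 with a mean of at least 5 RPKM. For subclone 2 over the parent it was -0.93, beside 0.037, also with the unlisted gene at its bound. For subclone 2 over subclone 1 it was -0.73, beside 0.034. These medians include the members that reached the limit through the parent. The 18 members under the limit had 13, 12 and 9 reads, and with a ratio of subclone 2 to the parent of 0.658 (0.248–1.66) they showed no direction.

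**Figure D3:**
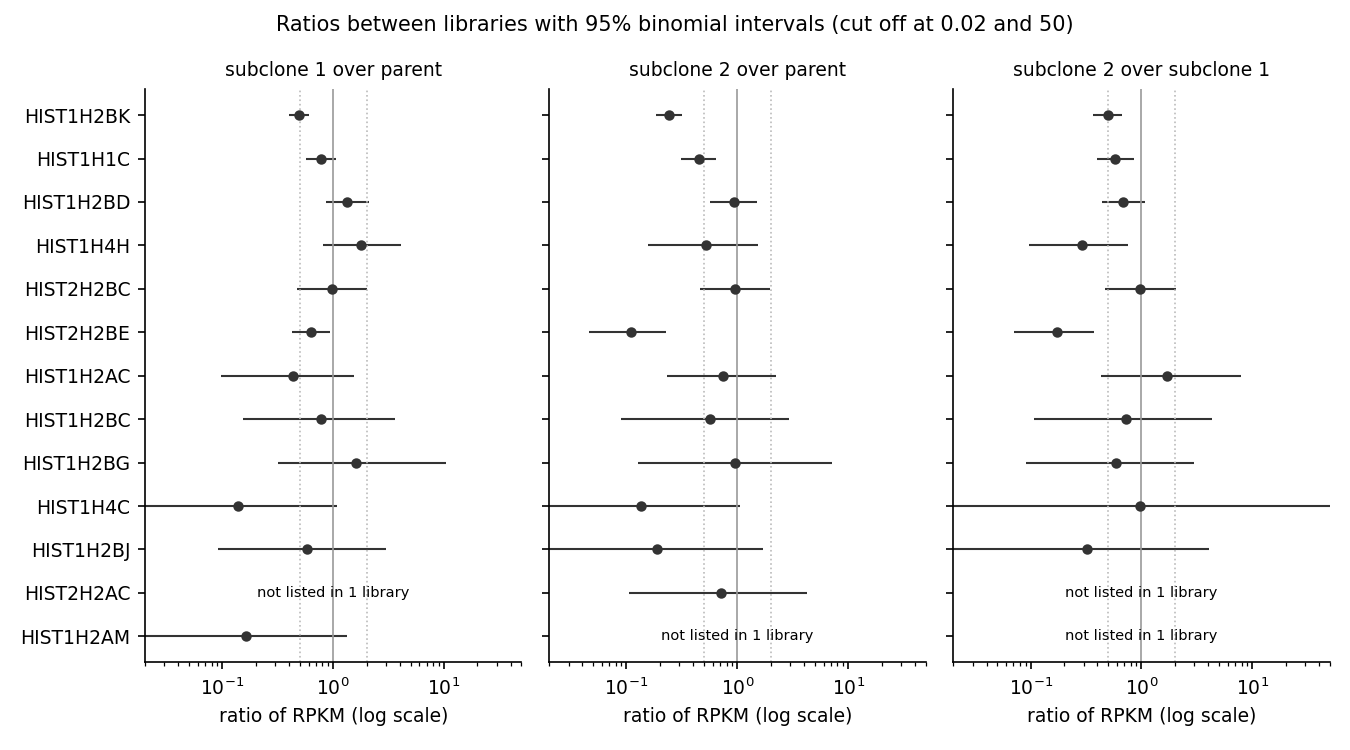
Ratios of RPKM between libraries (log axis) of the 13 histone cluster genes with a mean of at least 1 RPKM, with 95% binomial intervals drawn from 0.02 to 50, a solid line at 1 and dotted lines at 0.5 and 2. HIST1H2BK lies left of 1 in all 3 panels and HIST2H2BE far left in both panels of subclone 2, while most other bars cross 1.

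Histone genes outside the clusters mostly give ordinary polyadenylated mRNAs through the cell cycle. Of 19 such genes 12 were listed and 10 reached a mean of 1 RPKM. In either subclone 0 of the 10 were higher or lower than the parent by 2-fold. Over all genes 4.9% and 5.33% were higher and 1.82% and 2.16% lower, so 0 of 10 does not set this list apart. The median log2 ratios of the 10 to the parent were -0.05 and 0.19. H2AFZ, the variant H2A.Z found at promoters, had 213, 224 and 261 RPKM. H3F3B, a gene of the variant H3.3, had 112, 92.0 and 100.2 RPKM, and H1F0, the linker histone H1.0, had 74.2, 73.8 and 86.9 RPKM. H2AFX, whose mRNA is known in a stem-loop and a polyadenylated form, had 50.9, 38.5 and 32.6 RPKM, with a ratio of subclone 2 to the parent of 0.640 (0.544–0.752).

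Of the genes that make, process and degrade histone mRNA 30 were listed. In each subclone 1 of them was higher than the parent by 2-fold or more and 0 were lower, with medians of -0.09 and -0.04. Over all genes 4.9% and 5.33% were higher and 1.82% and 2.16% lower, so these counts do not set the list apart. SLBP had 55.7, 52.3 and 55.1 RPKM, and NPAT, the activator of histone gene transcription, had 7.77, 7.82 and 8.34 RPKM. The level was below the parent for 19 of the 30 in subclone 1 and for 18 in subclone 2. Farthest below it in both was CSTF2, with 34.2, 18.7 and 20.2 RPKM and ratios of 0.548 (0.453–0.662) and 0.590 (0.490–0.708). The gene higher by 2-fold was POU2AF1, a coactivator of octamer-binding factors known from B cells. It had 3.89, 8.80 and 15.6 RPKM and ratios to the parent of 2.26 (1.62–3.18) and 4.02 (2.96–5.52). POU2F1 itself had 4.73, 3.86 and 5.05 RPKM. Of 20 histone chaperones and assembly factors 2 were lower by 2-fold or more in subclone 2 and 0 in subclone 1. The shares of all genes were 2.16% and 1.82%. The 2 genes were ASF1A and HJURP. ASF1A, a chaperone of H3 and H4, had 32.9, 19.2 and 15.3 RPKM. HJURP, the chaperone of the centromeric histone CENPA, had 57.7, 37.4 and 28.0 RPKM.

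The cell cycle was followed by 3 lists. Over all genes 4.9% and 5.33% were higher than the parent by 2-fold or more in subclones 1 and 2, and 1.82% and 2.16% were lower. Of 26 S phase and replication genes 1 was lower by 2-fold or more in subclone 1 and 0 in subclone 2, with medians of -0.24 and -0.25. The level was below the parent for 22 of the 26 in subclone 1 and for 19 in subclone 2, against 49.6% and 46.5% of all genes, and the summed levels were 1129, 928 and 983 RPKM. The gene lower by 2-fold was CDC25A, a phosphatase that activates cyclin-dependent kinases, with 9.11, 4.03 and 4.84 RPKM, while PCNA, the sliding clamp of the replication fork, had 145.2, 108 and 123 RPKM. Of 14 mitosis genes 0 differed by 2-fold in either subclone, with medians of -0.126 and -0.096. The level was below the parent for 11 of the 14 in subclone 1 and above it for 3. In subclone 2 it was below for 9 and above for 5. The summed levels of the list were 796, 714 and 761 RPKM. TOP2A, which untangles DNA before division, had 124, 132 and 138 RPKM, while CCNB1 had 86.8, 72.2 and 72.3 RPKM. Of 15 genes of cell cycle exit and differentiation 14 reached a mean of 1 RPKM, 2 of them higher by 2-fold or more in subclone 1, 3 in subclone 2, and 0 lower. CDKN1A, the kinase inhibitor p21, had 20.0, 39.2 and 55.8 RPKM, the antiproliferative gene BTG1 had 12.8, 26.8 and 30.8 RPKM, and CDKN1C, the inhibitor p57, had 10.3, 29.03 and 22.7 RPKM. The part of these genes in the histone levels was not tested.

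**Figure D4:**
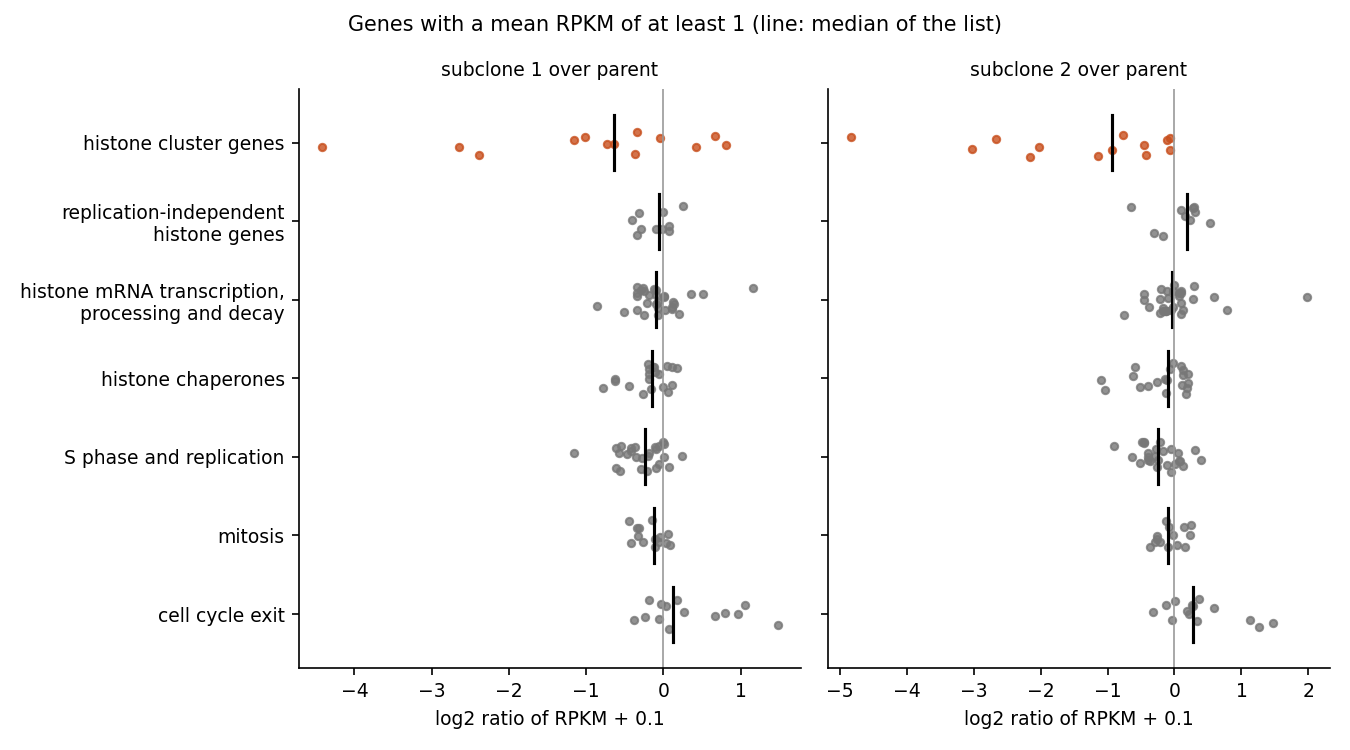
Log2 ratios of (RPKM + 0.1) to the parent for genes with a mean of at least 1 RPKM, by list, with subclone 1 on the left and subclone 2 on the right; each point is a gene and each black line the median of its list. The histone cluster genes have medians of -0.64 (-0.034 with no limit on the mean) and -0.93, while the medians of the other lists drawn lie between -0.25 and 0.27.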

How the data were processed

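Messenger RNA of the parent line and 2 subclones was sequenced, 1 library each, after Trizol extraction and TruSeq RNA library preparation. The authors deposited RPKM values per gene with Entrez number and symbol. The submitters' processing notes name the build hg19. The aligner, counting tool, annotation, use of strand and treatment of reads shared by several genes are not given in the sources used here. Genes that a library did not list were taken as 0. Groups follow the sample labels.

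Reads were recovered from the RPKM. Genes with the same reads in the parent and a subclone (653 and 625) fixed the ratios between libraries, and low RPKM fixed the total of the parent. For each gene the smallest length giving whole reads, and not below its median GENCODE coding length, was accepted, so that reads with a common divisor may be understated. Resolved genes held 96.1% of each library total, and 11285 of the 11370 genes with a mean of at least 1 RPKM were resolved. The recovery was tested on simulated data.

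The members and all lists were chosen with earlier results of these data known. Members were named that had a mean of at least 1 RPKM and a 2-fold difference or no listing in a library, or were among the 12 highest, or led their family or cluster. From each other list the genes with a 2-fold difference and up to 4 of the highest could be named. H2AFX, NPAT, POU2F1, CSTF2 and HIST1H2AE lie outside this rule and were named after their values were seen. No test was made between lines. The alternatives were pseudocounts of 0.01 and 1 in place of 0.1, ratios centred on the median of all genes, RPKM over the upper quartile or over ACTB, no filter or a mean of at least 5 RPKM, 1.5-fold in place of 2-fold, and sums without HIST1H2BK. Positions and transcripts came from GENCODE 29 (GRCh38), which is not the build of the RPKM, and promoters from RefSeq (GRCh38.p14). Python 3.11.15, numpy 2.4.6, pandas 2.3.3, scipy 1.17.1 and matplotlib 3.10.9 were used.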

Additional observations from a re-analysis of the deposited data

Results flagged for a closer look

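The subclones stood on opposite sides of the parent for 3 members with a mean of at least 1 RPKM. The difference was not tested, since each line has 1 library. HIST1H4H was above the parent in subclone 1 and below it in subclone 2, with a log2 ratio of subclone 2 over subclone 1 of -1.74 (6 and 20 reads). HIST1H2BD had a log2 ratio between the subclones of -0.53 (36 and 51 reads) and HIST1H2BG one of -0.73 (3 and 5 reads). The counting interval of this ratio left out 1 for HIST1H4H and held 1 for HIST1H2BD and HIST1H2BG. For all 3 genes the intervals of both ratios to the parent hold 1, so the reads do not settle their side of the parent. HIST1H2BG had 3 reads in both the parent and subclone 2. The share of all genes with subclones on opposite sides was not counted.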

How the results depend on the processing

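Of 81 values under the alternatives, 17 moved beyond a tolerance and 64 did not. The tolerance was 1.5 times for a count and the counting interval for a summed ratio, while a median was held to the counting interval of its middle gene, which is wide where that gene has few reads. Between the subclones the median of -0.73 thus counts among the 64, at -0.43 with no filter. The filter on low RPKM mattered most. With no filter 5 members were higher and 10 lower by 2-fold for subclone 1 against the parent, where the median was -0.034. The 5 higher ones had 1 or 2 reads against 0, so the pseudocount of 0.1 set these calls. Subclone 2 had 6 higher and 13 lower against the parent, and 6 higher and 11 lower against subclone 1. The shares of all genes were not counted under the other filters or at 1.5-fold. With a mean of at least 5 RPKM 5 members were tested, 1 of them lower in subclone 1 (median -0.038) and 2 lower in subclone 2 against the parent, and 2 lower and 0 higher between the subclones. At 1.5-fold 2 members were higher in subclone 1 against the parent and 2 higher in subclone 2 against subclone 1. With a pseudocount of 1, 2 members were lower between the subclones. Without HIST1H2BK the log2 ratio of the summed RPKM to the parent moved from -0.53 to -0.22 for subclone 1 and from -1.31 to -0.91 for subclone 2. Division by ACTB left 9 in place of 11 members below subclone 1 in subclone 2. No paired analysis was possible because each line has 1 library, and no library could be left out. Apart from HIST1H2BK, HIST1H1C, HIST2H2BE and HIST1H2BD, members had at most 20 reads in any library, which limits what could be detected.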
